A study of Mus musculus with 9 samples.

Results

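Dimethyl fumarate (DMF) is an electrophilic drug that reacts with glutathione (GSH), and Tc17 cells are CD8+ T cells that make IL-17. The genes described here are 10 transcription regulators that steer CD8+ T cells towards effector or memory fates, chosen by gene symbol from the 41388 genes of the table, namely Tbx21, Eomes, Prdm1, Zeb2, Id2, Id3, Runx3, Bhlhe40, Zbtb32 and Bcl6. All 10 symbols were found, and all 10 passed the minimum mean of 10 normalized counts with which 11599 genes were tested. Prdm1 passed it only through its DMF libraries. The RNA came from C57BL/6 mice, whose naive CD8+ T cells from lymph node and spleen were sorted and cultured for 2 days. Ctrl cultures received 0.2% DMSO alone, DMF cultures 20 µM DMF, and DMF + GSH cultures 20 µM DMF with 50 µM GSH. All 3 groups were primed on plates coated with 5 µg/ml anti-CD3, with 0.5 µg/ml anti-CD28 in the medium. They also shared IL-2 (50 U/ml), TGF-β (0.5 ng/ml), IL-6 (30 ng/ml) and an antibody against IFN-γ (5 µg/ml). Each group had 3 libraries, and replicate 1 belongs to preparation batch 1 and replicates 2 and 3 to batch 2. The labels give neither the ages of the mice nor whether replicates came from separate animals or cultures. The study's methods state an adult age for all its mice, matched for age and sex, and it describes values drawn from this RNA-seq as combined from separate experiments. No source used here ties single libraries to animals, and p-values measure the spread between these libraries.

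T-BET (encoded by Tbx21) and EOMES are related T-box factors that switch on cytotoxic and IFN-γ genes in CD8+ T cells. BLIMP1 (Prdm1), ZEB2 and ID2 are known for terminal effector differentiation, whereas BCL6 and ID3 are known for memory cells, and BLIMP1 and BCL6 repress each other. ID2 and ID3 lack a DNA-binding region and act by capturing E proteins, which bind the E-box letters CANNTG. RUNX3 sets the CD8 lineage and cytotoxic programme, BHLHE40 is an E-box binding repressor linked to cytokine production, and ZBTB32 is a zinc finger repressor that is induced in activated lymphocytes.

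The recovered depth ranged from 7671772 to 14511926 reads per library, and the shallowest was Ctrl replicate 3. All 9 genes listed as CD8+ T cell markers and all 7 listed for type 17 cells were expressed at a mean above 10 normalized counts. Of the genes listed for other cells, some were at or near 0 and others were not, among them Pecam1 of endothelium (578 ± 264 in Ctrl, SD, n = 3), Xbp1 of plasma cells (1629 ± 264), Foxp3 (756 ± 180.2) and Cd79b of B cells (65.4 to 87.3 in Ctrl). The natural killer gene Ncr1 did not exceed 2.08 normalized counts in any library, and the red cell genes Hbb-bs, Hbb-bt and Hba-a1 were listed at 0 throughout. The summed markers of myeloid cells were 193 in Ctrl replicate 3, the highest of all 9 libraries, where Lyz2 had 119 and Csf1r 58.3 normalized counts.

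Levels between genes were compared as normalized counts per kilobase of exon. In Ctrl, Runx3 stood highest with 623 and ranged from 592 to 662. Id2 followed with 493 (422 to 545), Bhlhe40 with 453 (339 to 563) and Zbtb32 with 335 (288 to 407). Id3 had 263 (237 to 280), Tbx21 109 (61.0 to 149) and Bcl6 48.4 (38.5 to 64.3). At the low end, Eomes had 6.79 (3.58 to 12.01), Zeb2 4.76 (3.57 to 5.58) and Prdm1 0.823 (0.333 to 1.12). The order depends on the exon lengths, which join all annotated exons of a gene. Zeb2 (19942 bases) had a Ctrl mean of 94.8 normalized counts, above the 28.2 of Eomes (4155 bases). The ranges of Id2 and Bhlhe40, Bhlhe40 and Zbtb32, Tbx21 and Bcl6, and Eomes and Zeb2 overlapped, whereas those of the other neighbours did not. Within a library, Tbx21 stood above Bcl6 in 3 of 3, and the other overlapping pairs kept the order of their means in 2 of 3. Under DMF the mean order changed, with Zbtb32 first at 724 ± 110 per kilobase (SD, n = 3), ahead of Runx3 at 511 ± 17.1. Eomes stood at 31.3 ± 1.90 under DMF, above Bcl6 at 17.6 ± 11.5, and was the higher of the pair in each DMF library, although their ranges overlapped.

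**Figure D1:**
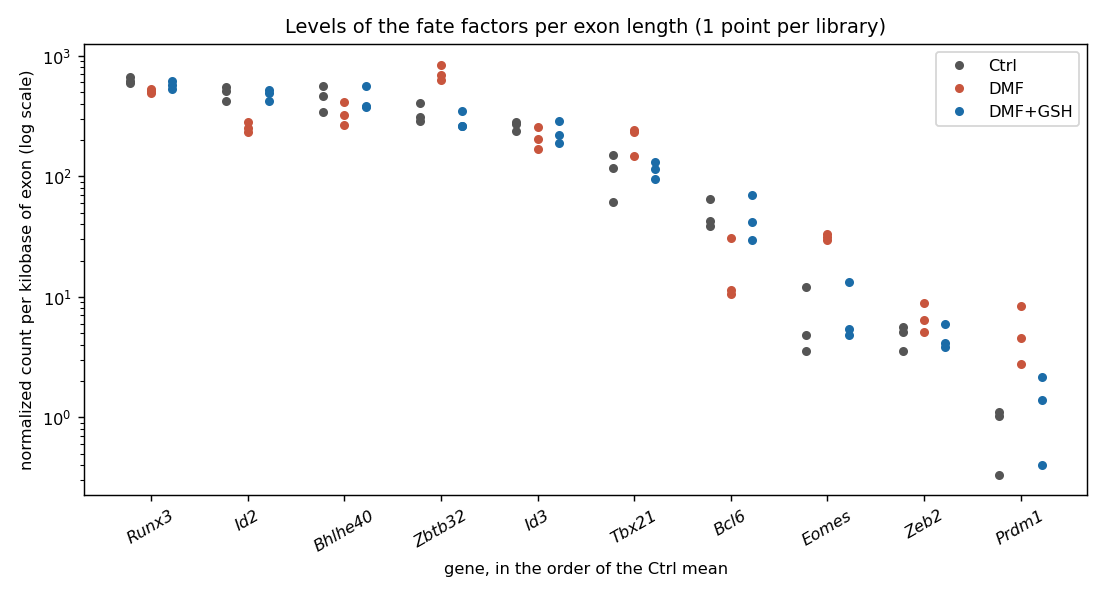
Normalized counts per kilobase of exon on a log axis for the 10 regulators, in the order of their Ctrl mean, with 1 point per library and colours for Ctrl, DMF and DMF + GSH (n = 3 each). Runx3 lies between 592 and 662 in Ctrl and Prdm1 between 0.333 and 1.12.

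With DMF, 4 of the 10 regulators changed beyond the threshold, which asked for an adjusted p below 0.01 together with a log2 fold change of 0.75 or more in either direction. The background was 2.89%, since 335 of the 11599 genes tested passed, 141 of them higher (1.22%) and 194 lower (1.67%). Tbx21, Eomes and Zbtb32 rose and Id2 fell. With the replicate number as a block, Prdm1 (higher) and Bcl6 (lower) passed as well, making 6 of 10 beside 6.8% of all genes (789). Prdm1 met the minimum mean of 10 only through its DMF libraries, so its own level under DMF decided whether it was tested. Adjusted p was under 0.05 for 9 of 10, beside 28.0% of all genes, and Id3 was the exception. In bulk RNA, fewer cells that express a gene and less RNA per cell cannot be told apart. The adjusted p-values given here come from limma across all genes.

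Tbx21 (chr11:97098071-97115331, minus strand, GRCm38) had 152, 289 and 370 normalized counts in Ctrl replicates 1, 2 and 3. It had 363, 578 and 602 under DMF and 238, 324 and 286 under DMF + GSH. The DMF library of replicate 1 lay just below Ctrl replicate 3, so that the groups overlapped, yet Tbx21 was higher with DMF within each replicate number. Tbx21 rose by 0.98 on the log2 scale (SE 0.15, adjusted p = 0.00564), which is 1.98-fold. The difference was 1.25 in batch 1 (1 pair) and 0.85 in batch 2 (2 pairs).

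Eomes (chr9:118478212-118486132, plus strand) had 49.9, 14.9 and 19.9 normalized counts in Ctrl, 139, 129 and 123 under DMF, and 55.0, 20.0 and 22.4 under DMF + GSH. Every DMF library was above every other library, and replicate 1 was the highest in all 3 groups. Eomes rose by 2.35 on the log2 scale with DMF (SE 0.28, adjusted p = 0.00276), or 5.11-fold. Its difference was 1.46 in batch 1 and 2.80 in batch 2, where the Ctrl libraries were lower. The DMF libraries lay close together, with an SD of 7.89 around a mean of 130.3, whereas the Ctrl mean of 28.2 had an SD of 18.9. An annotated antisense gene, Gm33460, overlaps 118 bases of its exons and has no row in the table. Without knowledge of strand in the counting, reads of such partners cannot be told apart.

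Zbtb32 (chr7:30589681-30598909, minus strand) had 680, 733 and 958 normalized counts in Ctrl, 1644, 1483 and 1990 under DMF, and 621, 618 and 812 under DMF + GSH. The DMF libraries did not overlap with either other group, and replicate 3 was the highest in each group. Zbtb32 rose by 1.11 on the log2 scale (SE 0.15, adjusted p = 0.00336), a 2.16-fold increase. The 3 replicate numbers gave 1.27, 1.02 and 1.05.

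Id2 (chr12:25093799-25097140, minus strand) had 1247, 1329 and 1030 normalized counts in Ctrl, 614, 687 and 568 under DMF, and 1255, 1195 and 1026 under DMF + GSH. Every DMF library was below every other library. Id2 fell by 0.94 on the log2 scale (SE 0.12, adjusted p = 0.00277), or 1.92-fold. The 3 replicate numbers gave -1.02, -0.95 and -0.86.

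**Figure D2:**
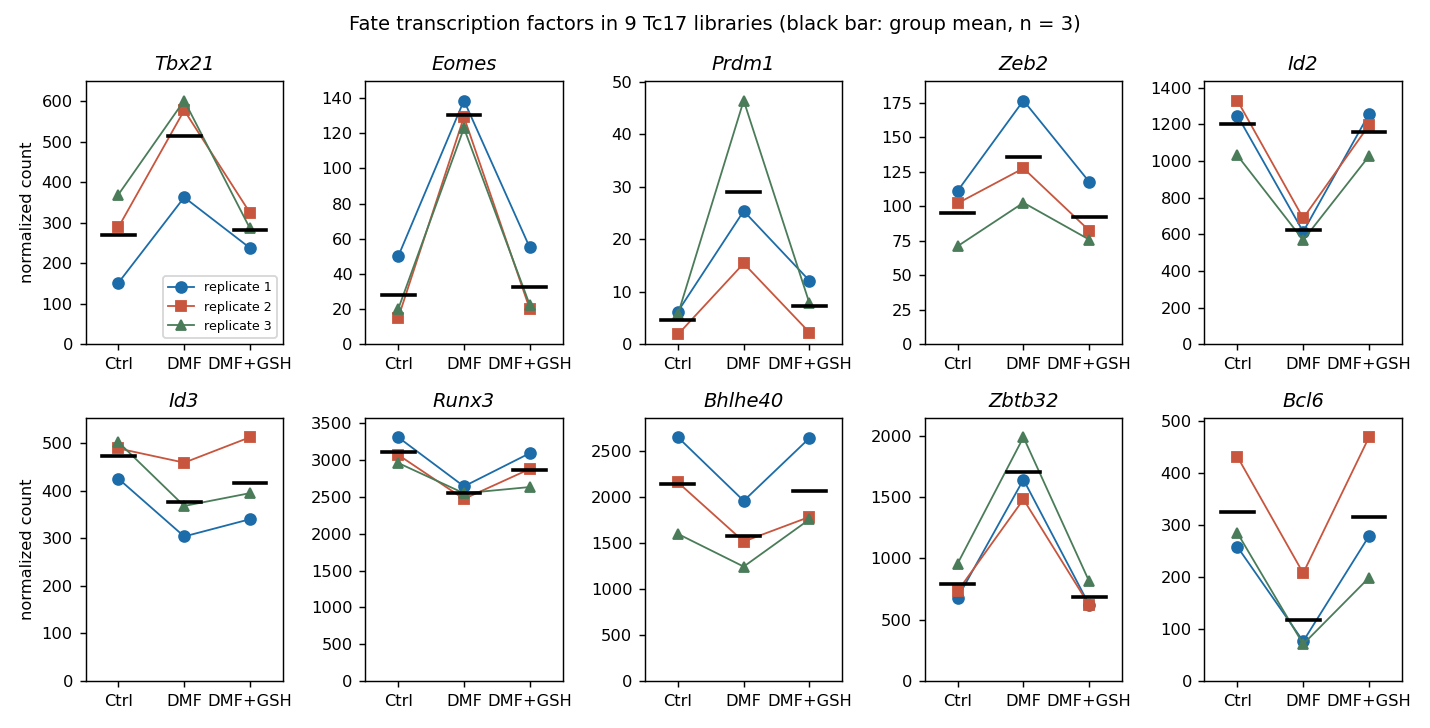
Normalized counts of the 10 regulators in Ctrl, DMF and DMF + GSH, with 1 point per library, lines joining libraries of the same replicate number and black bars for group means (n = 3), on linear axes that start at 0. Eomes is between 123 and 139 in the DMF libraries and between 14.9 and 55.0 in all others, and Id2 is between 568 and 687 under DMF and at 1026 or more elsewhere.

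To show what sequence lies before the 4 genes that changed in the same fit, the 250 bases before their RefSeq start (GRCm38.p6) are printed 5′ to 3′ on the strand of the gene, with capitals for E-boxes, the letters that E proteins and their relatives can bind. The windows are chr11:97115332-97115581 (minus strand) for Tbx21, chr9:118477939-118478188 (plus strand) for Eomes, chr7:30598910-30599159 (minus strand) for Zbtb32 and chr12:25096093-25096342 (minus strand) for Id2.
Tbx21: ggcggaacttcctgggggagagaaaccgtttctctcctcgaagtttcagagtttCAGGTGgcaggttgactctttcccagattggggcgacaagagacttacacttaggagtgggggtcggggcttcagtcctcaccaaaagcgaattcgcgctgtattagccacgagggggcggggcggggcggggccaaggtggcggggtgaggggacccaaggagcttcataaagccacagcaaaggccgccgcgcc
Eomes: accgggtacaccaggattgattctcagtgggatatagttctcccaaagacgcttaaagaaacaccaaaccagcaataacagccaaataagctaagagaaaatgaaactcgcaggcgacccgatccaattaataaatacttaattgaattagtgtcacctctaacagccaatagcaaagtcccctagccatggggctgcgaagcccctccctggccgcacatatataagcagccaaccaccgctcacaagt
Zbtb32: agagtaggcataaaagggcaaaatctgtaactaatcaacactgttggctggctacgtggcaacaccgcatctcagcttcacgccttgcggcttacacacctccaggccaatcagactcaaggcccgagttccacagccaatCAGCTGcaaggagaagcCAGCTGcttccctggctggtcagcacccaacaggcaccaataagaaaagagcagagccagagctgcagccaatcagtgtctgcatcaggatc
Id2: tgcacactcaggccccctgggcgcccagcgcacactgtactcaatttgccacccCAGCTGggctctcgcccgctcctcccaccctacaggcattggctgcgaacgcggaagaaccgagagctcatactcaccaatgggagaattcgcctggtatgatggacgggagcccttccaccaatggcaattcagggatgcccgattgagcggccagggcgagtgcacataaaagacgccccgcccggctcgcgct

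The Tbx21 window held 1 E-box, which begins 196 bases before the start and reads CAGGTG, the form that ZEB factors also bind. The Id2 window also held 1, beginning 196 bases before the start. Zbtb32 had 2, at 109 and 92 bases, and Eomes had none. The RefSeq start of Id2 lies 1048 bases inside the GENCODE gene, that of Eomes 23 bases from the GENCODE start, and those of Tbx21 and Zbtb32 coincide with it. A window was listed for 9 of the 10 regulators, all but Bhlhe40. RefSeq lists 2 starts for Zbtb32, Runx3 and Bcl6 and 4 for Zeb2, and only the one nearest the GENCODE start was read, so that the motif counts hold for that window. The 1 start listed for Prdm1 lies 69753 bases inside the GENCODE gene. Of these, 6 held CANNTG, beside 66.2% of all 32817 RefSeq windows of this length. The CAGGTG form (searched on both strands, also as CACCTG, a subset of CANNTG) was in those of Tbx21, Prdm1 and Runx3, beside 17.2% of all. CACGTG, the E-box that BHLHE40 is known to bind, was in that of Bcl6, 60 bases before the start, beside 6.02% of all. RUNX letters (TGTGGT or TGCGGT, both strands) were in those of Runx3 and Zbtb32, beside 18.6%. T-box letters (TCACAC or GTGTGA) and NRF2 letters (TGACNNNGC, both strands) were in none of the 9, beside 12.3% and 10.2% of all windows. These are matches of letters and not binding sites.

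Prdm1 (chr10:44437177-44528501, minus strand) was close to the limit of these libraries, with 6, 2 and 4 reads in Ctrl, 24, 18 and 48 under DMF, and 11, 3 and 8 under DMF + GSH. In normalized counts it had 6.24, 1.86 and 5.69 in Ctrl, 25.4, 15.4 and 46.5 under DMF, and 12.1, 2.23 and 7.78 under DMF + GSH. Every DMF library was above every other library, and replicate 2 was the lowest in each group. The log2 fold change with DMF was 2.41 (SE 0.58) and did not pass (adjusted p = 0.0161). With the replicate block it passed (adjusted p = 9.07e-05).

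Bcl6 (chr16:23965052-23988852, minus strand), the partner that BLIMP1 represses, had 258, 431 and 284 normalized counts in Ctrl, 76.2, 207 and 70.7 under DMF, and 278, 468 and 198 under DMF + GSH. Replicate 2 was the highest in each group, and no DMF library reached a Ctrl library. The log2 fold change with DMF was -1.60 (SE 0.40), with an adjusted p of 0.0174 by batch and of 9.32e-08 with the replicate block. It was -1.75 in batch 1 and -1.52 in batch 2. The gene Gm37419, annotated on the opposite strand, shares 21 bases of exon with Bcl6 and has no row in the table.

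The other 4 regulators did not pass in either fit. Zeb2 (chr2:44983632-45117395, minus strand) had 111, 102 and 71.1 normalized counts in Ctrl and 177, 128 and 103 under DMF, which overlap, and 118, 82.4 and 75.8 under DMF + GSH. Its log2 fold change with DMF was 0.50 (SE 0.17, adjusted p = 0.0484). The antisense gene Zeb2os shares 653 bases of exon with Zeb2 but did not exceed 0.968 normalized counts in any library. Runx3 (chr4:135120652-135177990, plus strand) had 3313, 3074 and 2963 in Ctrl and 2645, 2474 and 2551 under DMF, without overlap, and 3096, 2881 and 2636 under DMF + GSH. Its log2 fold change of -0.28 (SE 0.06, adjusted p = 0.0116) was estimated more tightly than any other among the regulators, and its size is under the threshold of 0.75.

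Bhlhe40 (chr6:108660629-108666925, plus strand) had 2647, 2157 and 1597 normalized counts in Ctrl, 1956, 1514 and 1242 under DMF, and 2638, 1782 and 1755 under DMF + GSH. These groups overlapped, and replicate 1 was the highest and replicate 3 the lowest in each of them. The log2 fold change with DMF was -0.44 (SE 0.11, adjusted p = 0.0187). Id3 (chr4:136143497-136145755, plus strand) had 425, 489 and 502 in Ctrl, 304, 459 and 368 under DMF, and 340, 512 and 395 under DMF + GSH. The groups overlapped, and its log2 fold change of -0.34 (SE 0.12) had an adjusted p of 0.0597. With the replicate block the adjusted p of these 4 genes ranged from 2.94e-05 (Bhlhe40) to 0.00709 (Zeb2), with log2 fold changes under 0.75 in size.

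All 10 regulators moved in 1 direction in all 3 replicate numbers with DMF, beside 66.3% of all genes tested. The DMF libraries did not overlap with Ctrl for 6 of 10 (Eomes, Prdm1, Id2, Runx3, Zbtb32 and Bcl6), beside 41.3% of all genes. Prdm1 is counted here although it met the minimum mean of 10 only through its DMF libraries, which favours such a separation. Libraries of the same number often held the same place in each group. The same number was the highest in all 3 groups for 6 of 10 (number 1 for Eomes, Zeb2, Runx3 and Bhlhe40, number 2 for Bcl6 and number 3 for Zbtb32), beside 35.7% of all genes. It was the lowest in all 3 groups for another set of 6 (Tbx21, Prdm1, Zeb2, Id2, Id3 and Bhlhe40), beside 32.4%.

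**Figure D3:**
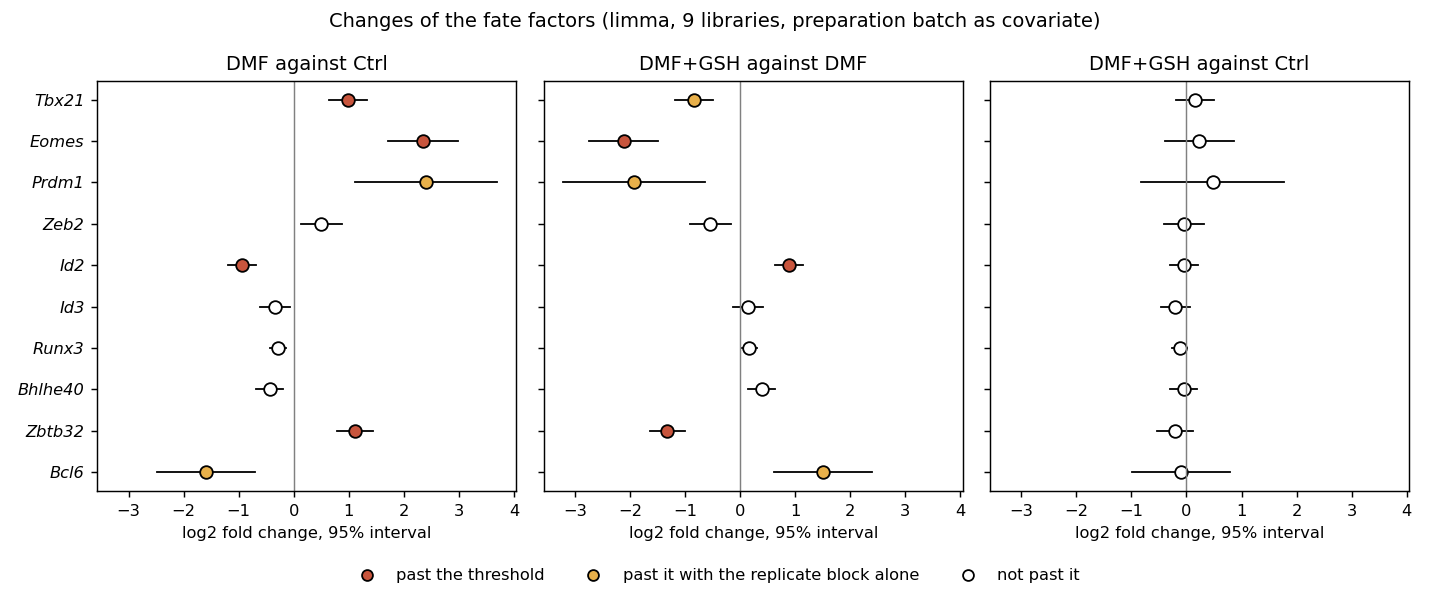
Log2 fold changes of the 10 regulators with 95% intervals from limma in 3 comparisons (9 libraries, preparation batch as covariate). Red points are past the threshold, yellow points pass with the replicate block alone and white points do not pass. Eomes has the largest change among the red points (2.35 with DMF), and all intervals of DMF + GSH against Ctrl include 0.

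Whether GSH undoes the effect of DMF was addressed by DMF + GSH against DMF. Of the 10 regulators, 3 passed, beside 0.543% of all genes (63 of 11599, with 0.267% higher and 0.276% lower), and with the replicate block 6 passed, beside 5.69% (660). This comparison shares its DMF libraries with the one above, so that the 2 are not independent. Eomes fell by 2.12 on the log2 scale when GSH was added (SE 0.28, adjusted p = 0.00685), and Zbtb32 fell by 1.32 (SE 0.15, adjusted p = 0.00472). Id2 rose by 0.89 (SE 0.12, adjusted p = 0.00646). Tbx21 was lower in every DMF + GSH library than in any DMF library, with a log2 fold change of -0.84, and its adjusted p was 0.0116 by batch and 3.70e-05 with the replicate block. Prdm1 had -1.93 (adjusted p = 0.0398, with the block 0.000826) and Bcl6 1.5 (adjusted p = 0.0268, with the block 2.65e-07). Prdm1 is among the 6 that passed with the block, and it met the minimum mean of 10 only through its DMF libraries. No conclusion is drawn from its call. Zeb2 had -0.55 (SE 0.17, adjusted p = 0.0423), Bhlhe40 0.39 (SE 0.11, adjusted p = 0.0342), Runx3 0.16 (SE 0.06, adjusted p = 0.0815) and Id3 0.14 (SE 0.12, adjusted p = 0.421), none of which passed. The groups did not overlap for 5 of 10 (Tbx21, Eomes, Prdm1, Id2 and Zbtb32), beside 38.3% of all genes, and the limit given for Prdm1 applies to this count as well. All 10 moved in 1 direction in all 3 replicate numbers, beside 65.3%.

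In DMF + GSH against Ctrl, 0 of the 10 regulators and 0 of all genes (0.0%) passed by limma. Unadjusted p was under 0.05 for 222 genes, edgeR on the recovered reads called 0 as well, and the fit with the replicate block called 1 gene (0.00862%), not a regulator. No group pair was free of overlap among the 10, beside 4.47% of all genes. The 95% intervals of the log2 difference give what these libraries leave possible. They were -0.26 to 0.02 for Runx3, -0.31 to 0.21 for Id2, -0.30 to 0.20 for Bhlhe40 and -0.53 to 0.12 for Zbtb32. Tbx21 had -0.20 to 0.49, Id3 -0.47 to 0.07 and Zeb2 -0.42 to 0.33. For Eomes (-0.40 to 0.87), Bcl6 (-0.98 to 0.79) and Prdm1 (-0.82 to 1.77) the intervals include differences beyond 0.75. Under the block that held for Prdm1 (-0.38 to 1.33) and Eomes (-0.29 to 0.77) but not for Bcl6 (-0.40 to 0.21). The block intervals of Zbtb32 (-0.34 to -0.07), Id3 (-0.39 to -0.01) and Runx3 (-0.23 to -0.01) lay below 0, with adjusted p of 0.607, 0.935 and 0.915.

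The number of regulators called depended on single libraries where the batch, and not the replicate number, was the covariate. With DMF, 0 passed without Ctrl replicate 1, Ctrl replicate 2 or DMF replicate 3, fits that called 2, 26 and 12 of all genes. Eomes alone passed without DMF replicate 1, where 5 of all genes did, and 3 (without Zbtb32) passed without DMF + GSH replicate 1, where 54 did. The 4 passed without Ctrl replicate 3 and without DMF + GSH replicate 2, and Bcl6 joined them without DMF replicate 2 or DMF + GSH replicate 3. Only the 6 libraries compared gave 0 of 10. The log2 fold changes themselves kept their direction in all these fits, from 0.79 to 1.15 for Tbx21, from 2.15 to 2.78 for Eomes, from 1.02 to 1.25 for Zbtb32 and from -1.05 to -0.84 for Id2. With the replicate block, all 4 passed without any 1 library, and so did Prdm1 and Bcl6, except that Prdm1 fell under the minimum mean without DMF replicate 3 and was not tested. When GSH was added, 0 of 10 passed without Ctrl replicate 1, DMF replicate 3, DMF + GSH replicate 1 or DMF + GSH replicate 2, where 7, 0, 0 and 0 of all genes did, and Eomes alone without DMF replicate 1, where 4 did.

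Within pairs of opposed or related factors, log2 ratios of normalized count + 1, not corrected for length, were compared between groups of 3 libraries with a two-sided exact permutation test, which cannot give less than 0.10. There were 15 comparisons of 5 pairs, and the smallest Benjamini-Hochberg adjusted p was 0.214. Taken over the 3 same-numbered pairs, an exact test, chosen after seeing the data, cannot give less than 0.25, and it gave 0.25 wherever the pairs shared a sign. The ratio of Prdm1 to Bcl6 was -5.16, -7.24 and -5.42 in Ctrl, -1.55, -3.67 and -0.59 under DMF, and -4.41, -7.18 and -4.51 under DMF + GSH. It was 4.0 higher with DMF (exact p = 0.10), by 3.61, 3.57 and 4.82 in the 3 replicate numbers, and it rests on the few reads of Prdm1. The ratio of Id2 to Id3 was 1.55, 1.44 and 1.03 in Ctrl, 1.01, 0.58 and 0.63 under DMF, and 1.88, 1.22 and 1.38 under DMF + GSH. Its mean was 0.60 lower with DMF (exact p = 0.10), by -0.54, -0.86 and -0.41 in the 3 replicate numbers. The ratio of Tbx21 to Eomes was 1.59, 4.19 and 4.15 in Ctrl and 1.38, 2.15 and 2.28 under DMF (exact p = 0.30). Its change was -0.20, -2.04 and -1.87, so that replicate 1 stood apart. The ratio of Zeb2 to its relative Zeb1 was 0.69 higher with DMF (exact p = 0.10), by 0.89, 0.54 and 0.64, and changed by -0.75, -0.84 and -0.51 when GSH was added (exact p = 0.20). Bhlhe41 had a mean of 2.48 ± 1.47 normalized counts in Ctrl (SD, n = 3), too few for its ratio to Bhlhe40 to be read.

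**Figure D4:**
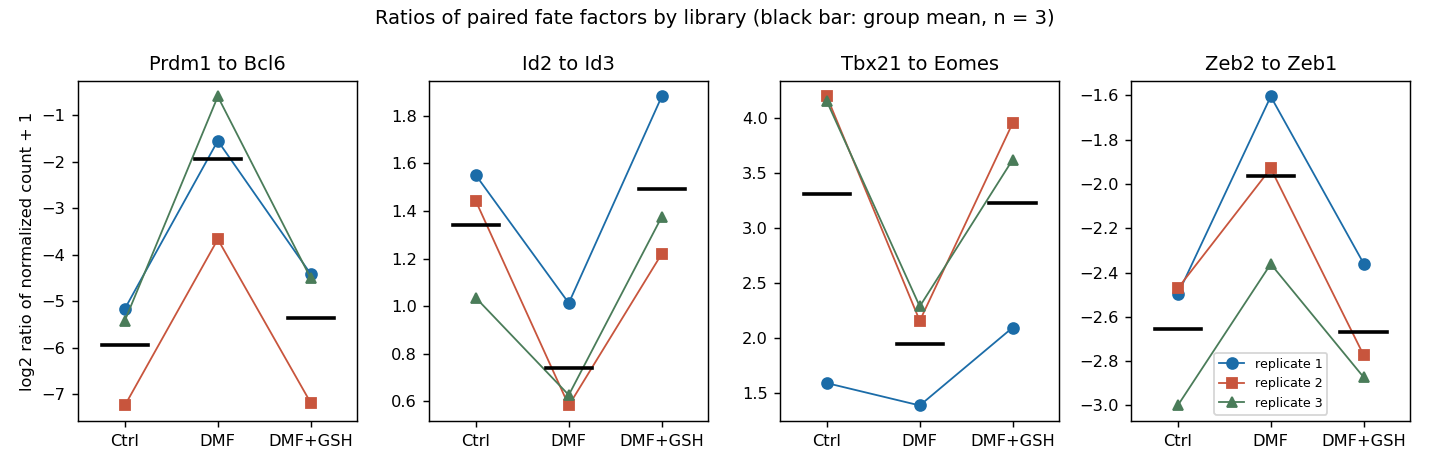
Log2 ratios of normalized count + 1 for 4 pairs of regulators in Ctrl, DMF and DMF + GSH, with 1 point per library, lines joining the same replicate number and black bars for group means (n = 3). The Prdm1 to Bcl6 ratio is between -7.24 and -5.16 in Ctrl and between -3.67 and -0.59 under DMF.

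Relatives and partners of the regulators were read from the same fit. Of 20 tested relatives and partners from the T-box, RUNX, ZEB, PRDM and ZBTB families, 0 passed with DMF by limma, and the median log2 fold change was 0.00, beside 0.01 for all genes. Under the block, 2 passed, both lower, beside 6.8% of all genes in either direction. They were Zbtb20 (-1.10, adjusted p = 7.82e-06) and Tbx6 (-1.15, adjusted p = 0.00938). Runx1 (log2 fold change -0.14, adjusted p = 0.521), Runx2 (-0.17, adjusted p = 0.262) and their shared partner Cbfb (0.07, adjusted p = 0.515) did not pass, nor did Zeb1 (-0.19, adjusted p = 0.0693). Id1 had 6.60 ± 2.53 normalized counts in Ctrl and 9.15 ± 0.981 under DMF (SD, n = 3), and like Id4 and Bhlhe41 it was too low to be tested. None of the 3 E proteins that ID2 and ID3 capture passed. Tcf3, which encodes E2A, had a log2 fold change of -0.01 (adjusted p = 0.911), Tcf12 -0.17 (adjusted p = 0.0623) and Tcf4 -0.54 (adjusted p = 0.0148).

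Of 13 factors listed for naive and memory T cells, 1 fell with DMF and 0 rose, with a median of -0.54, beside 1.67% of all genes lower and 1.22% higher. It was Satb1, a chromatin organiser (-1.33, adjusted p = 0.00640). Under the block 5 passed, all lower, beside 6.8% of all genes in either direction, among them Tcf7, which encodes TCF1 (-1.14, adjusted p = 6.46e-10), and Klf3 (-1.08, adjusted p = 5.10e-07), with Lef1 (-0.76, adjusted p = 1.04e-07) and Klf2 (-0.81, adjusted p = 3.34e-07). Of 26 factors listed for effector cells, 4 rose (beside 1.22% of all genes) and 0 fell, with a median of -0.03. They were Batf3 (3.40, adjusted p = 0.00278), Irf8 (1.41, adjusted p = 0.00457), Nr4a3 (1.01, adjusted p = 0.00432) and Myc (0.87, adjusted p = 0.00554). Batf3 and Irf8 are known as partners in dendritic cells, and Nr4a3 answers to the antigen receptor. Under the block these 4 again passed, and Stat4, which relays IL-12 signals, was lower (-0.91, adjusted p = 9.32e-08, by batch 0.0532). Zfp683, which encodes the BLIMP1 relative HOBIT, had a log2 fold change of 0.15 (adjusted p = 0.756).

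Of 15 tested genes that T-BET and EOMES are known to act on, 6 rose with DMF and 0 fell, with a median of 0.21, beside 1.22% of all genes higher, 1.67% lower and a median of 0.01. The largest rises were in Ifng (2.87, adjusted p = 0.00123), in Gzmb, which encodes granzyme B (2.09, adjusted p = 0.00188), and in the chemokine gene Ccl3 (1.80, adjusted p = 0.00188). Ccl4, Klrk1 and Prf1 also rose. Other genes of the list did not pass, among them Il2rb (0.01, adjusted p = 0.917), Cxcr3 (-0.14, adjusted p = 0.510) and Il12rb2 (0.11, adjusted p = 0.424), and Klrg1, a marker of terminal effector cells, was listed at 0 in all 9 libraries. Of 8 tested genes that BLIMP1 is known to hold down, among them the regulators Bcl6 and Id3, 7 had lower estimates, beside 49.4% of all genes, and Myc, a driver of growth, alone passed, and it rose. Under the block, Tcf7 and Bcl6 passed as well, both lower, beside 6.8% of all genes in either direction. Of 6 tested genes on which E and ID proteins are opposed, 1 fell, beside 1.67% of all genes. It was Il7r, the receptor chain for IL-7 (-1.05, adjusted p = 0.00649). Under the block 3 of the 6 were lower and 1 was higher, beside 6.8% of all genes in either direction. Lower were Il7r, Tcf7 and Socs3 (-0.98, adjusted p = 0.0228, with the block 1.50e-08). Higher was the cell cycle inhibitor gene Cdkn1a (0.90, adjusted p = 0.0470, with the block 1.49e-05). The lists are not separate, since Ccr7 and Cxcr5 are on those of BLIMP1 and of E and ID proteins, Tcf7 on both and on that of naive and memory factors, Bach2 on the latter and that of BLIMP1, and Myc on those of effector factors and BLIMP1, so that its rise is counted in both.

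**Figure D5:**
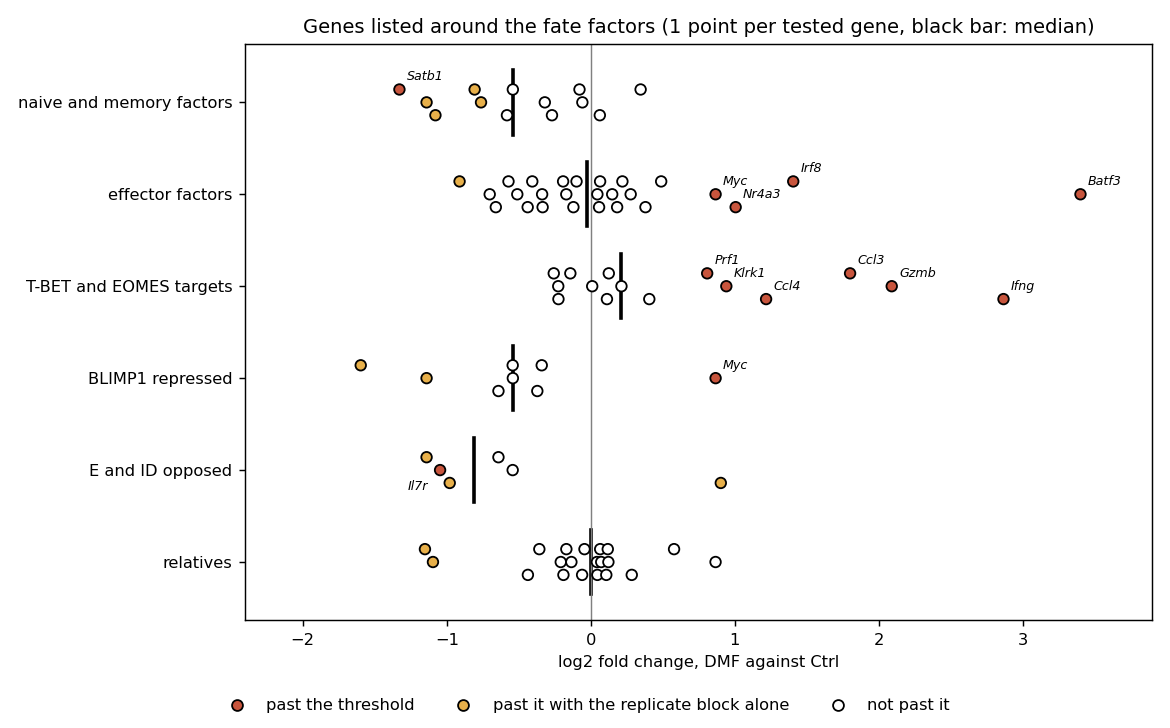
Log2 fold changes with DMF against Ctrl of the tested genes in 6 lists around the regulators, with 1 point per gene and a black bar for the median of each list. Red points, which are named, are past the threshold (6 of 15 for T-BET and EOMES), yellow points pass with the replicate block alone and white points do not pass.

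Markers of other cells and states moved beside the regulators, and their part in these results was not tested. Among all genes, 49.4% had lower estimates with DMF and 1.67% fell past the threshold. All 7 type 17 markers had lower estimates with DMF, with a median of -1.46. Of these, 4 fell, among them Il1r1 (-2.79, adjusted p = 0.000360) and Il17a (-2.15, adjusted p = 0.00305). The 7 type 17 markers summed to 8401 to 10944 normalized counts in Ctrl, 4185 to 6123 under DMF and 7365 to 10986 under DMF + GSH. Of the 9 CD8+ T cell markers, 7 had lower estimates and none was past 0.75 in size, with a median of -0.24, and their sums of 36753 to 43348 in Ctrl and 35005 to 41599 under DMF overlapped. The summed markers of naive T cells, all 4 expressed, ranged from 12959 to 23073 normalized counts in Ctrl, from 7579 to 11873 under DMF and from 12257 to 21294 under DMF + GSH. Of these 4, S1pr1, a receptor for leaving lymph nodes, fell with DMF (-1.97, adjusted p = 0.00649), and Tcf7 and Lef1 passed with the block alone. The 4 CD4 T cell markers summed to 638 to 964 in Ctrl, 1125 to 2529 under DMF and 547 to 999 under DMF + GSH. Foxp3 made up most of this, with 796, 559 and 913 in Ctrl and 2456, 1035 and 2325 under DMF (log2 fold change 1.29, adjusted p = 0.0221, with the block 1.06e-07), whereas Cd4 did not exceed 4.40 in any library. Natural killer cells also use Tbx21 and Eomes. Their 6 markers summed to 11.1 to 18.5 in Ctrl, 20.5 to 35.8 under DMF and 13.2 to 17.5 under DMF + GSH. That sum came mostly from Klre1 (log2 fold change 1.57, adjusted p = 0.0136, with the block 0.000922). Klre1 averaged 8.22 normalized counts in Ctrl, 26.6 under DMF and 11.3 under DMF + GSH. It met the minimum mean for testing only through its DMF libraries, so no conclusion is drawn from its adjusted p-values. In contrast, Ncr1 and Klrb1c were listed at 0 in all DMF libraries. The 6 B cell markers summed to 72.5 to 96.6 in Ctrl and 59.04 to 82.2 under DMF, mostly from Cd79b. The 11 myeloid markers in the table summed to 8.31 to 193 in Ctrl and 3.17 to 19.4 under DMF, with S100a8 and S100a9 listed at 0. The 5 markers of stroma and endothelium summed to 294 to 760 in Ctrl, 152 to 253 under DMF and 285 to 615 under DMF + GSH. Pecam1 made up most of this sum, with a mean of 578 in Ctrl beside 16.5 for Col1a1, the next highest. Pecam1 had a log2 fold change of -1.47 with DMF (adjusted p = 0.020, with the block 6.10e-08). The plasma cell markers, 3 in the table of 4 listed and mostly Xbp1, summed to 1522 to 1999 in Ctrl, 1909 to 2374 under DMF and 1502 to 1879 under DMF + GSH.

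Over the 9 libraries, the genes whose log2 values ran most like those of the 4 regulators were picked by Pearson correlation, as a description across libraries that share the treatment and the replicate number. For Tbx21 they were Acsl5 (r = 0.979) and Ppp1r1b (r = 0.968). For Eomes they were Larp7 (r = 0.956) and St7 (r = 0.951). Zbtb32 was closest to Pes1 (r = 0.990) and Slc29a2 (r = 0.990), and Id2 to Fam214a (r = 0.994) and Ahnak (r = 0.992). Of these 8 genes, Ahnak (-0.80) and Slc29a2 (1.06) also passed the threshold with DMF.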

How the data were processed

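The 9 libraries of Tc17 mRNA, 3 per group, were grouped by the condition and replicate number in the sample labels. The authors aligned single reads of 50 bp to GRCm38 with STAR 2.4.0b, counted them per gene with featureCounts and divided each library by a DESeq2 size factor. The deposited values are therefore a scaled signal (normalized counts). The use of strand in counting is not given in the sources. Columns that the authors deposited for their own comparison, among them a log2 fold change, its score (test statistic) and its p-value, were not used. Dividing by the smallest step of each library gave whole reads for 100% of values above 0 (tolerance 0.01). Their sum was taken as depth, from 7671772 to 14511926.

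The test was limma-trend (limma 3.58.1, R 4.3.3) on log2(normalized count + 1), two-sided. A single model held all 9 libraries, with group and preparation batch, and 11599 genes that averaged 10 or more. Raw counts had been foreseen, for which edgeR would have been the main test, and edgeR 4.0.16 was run on the recovered reads instead. P-values are Benjamini-Hochberg adjusted over all genes tested. A fold change on this scale understates that of low genes. Same-numbered libraries of different groups correlated after subtraction of group means (0.447 to 0.578 in 9 pairs, others -0.471 to -0.0621). The numbers, which stand in the labels, were therefore taken to pair the samples. Subtracting the mean of 3 libraries pushes the others below 0 where the same-numbered ones are above it. Their sign is thus no separate evidence, and replicate 1 is also the only number in batch 1. For the regulators, a value from the block stands beside each call that it alters. On simulated counts for DMF against Ctrl, in which 200 of 11599 genes had a log2 shift of 1.5, the test recovered 97% and called 0 others. The simulated counts had the same dispersion for all genes and no batch or replicate effect. They check that the code runs as meant and give no estimate of power in these libraries.

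Alternatives were pseudocounts of 0.5 and 4, no minimum and a minimum of 50, TMM and quantile scaling, edgeR, the replicate block or no batch term as covariate, a fit limited to the 6 libraries of a comparison, and each library left out. EdgeR with the block and the block with each library left out were chosen after seeing the data. Named genes were the 10 regulators, up to 3 rises and 3 falls past the threshold per list, the E proteins, Id1, Runx1, Runx2, Cbfb, Zeb1 and Bhlhe41, and the 2 genes most correlated with each called regulator. Other list and marker genes (Myc among the effector factors, Ccl4, Klrk1, Prf1, Klrg1, Zfp683 and those that pass with the block alone or not at all) were named after their values were seen. Results for some single genes are not reported here. The regulators and lists were chosen with earlier results of these data known. Positions are from GENCODE vM21 (GRCm38), exon lengths are unions of its exons, and promoter sequences are from RefSeq (GRCm38.p6). Tools were Python 3.11.15, pandas 2.3.3, NumPy 2.4.6, SciPy 1.17.1 and Matplotlib 3.10.9.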

Additional observations from a re-analysis of the deposited data

How the results depend on the processing

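Scaling did not move the calls among the regulators. With TMM, quantile normalization, either pseudocount, a minimum mean of 50 and edgeR on the recovered reads, 4 passed with DMF and 3 when GSH was added, and the median of all genes moved by less than 0.1 on the log2 scale. Eomes met the minimum of 50 only through its DMF libraries (means of 28.2 in Ctrl, 130 under DMF and 32.5 under DMF + GSH). No conclusion is drawn from its calls at that setting. Other choices changed the counts. With the replicate block, which follows the pairing of the libraries, 789 genes passed with DMF, 660 genes and 6 regulators when GSH was added, and 1 gene in DMF + GSH against Ctrl. EdgeR with the block gave 795 genes, 655 genes with 6 regulators, and 1 gene. The cause of the larger counts was not tested. The block changed no call of a regulator other than those of Prdm1 and Bcl6 with DMF, and Tbx21, Prdm1 and Bcl6 when GSH was added. Only the 6 libraries compared, a fit with fewer samples, gave 43 genes with DMF and 5 when GSH was added, with 0 regulators in both. Without the batch term, 28 genes passed when GSH was added, and Eomes lost its call (Tbx21 did so with DMF). No minimum gave 273 genes when GSH was added, with Tbx21 as a further call, and Bcl6 as a further call with DMF.

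Leaving out each library, with the batch or with the block, gave 2 to 862 genes and 0 to 6 regulators with DMF, 0 to 727 genes and 0 to 6 regulators when GSH was added, and 0 to 5 genes in DMF + GSH against Ctrl. With the batch as covariate, genes past the threshold with DMF numbered 2, 26 and 681 without Ctrl replicates 1, 2 and 3, 5, 667 and 12 without DMF replicates 1, 2 and 3, and 54 without DMF + GSH replicate 1, beside 335 with all. When GSH was added they numbered 7 and 252 without Ctrl replicates 1 and 3, 4, 481 and 0 without DMF replicates 1, 2 and 3, and 0, 0 and 449 without DMF + GSH replicates 1, 2 and 3, beside 63. With the block alone the counts were 562 to 862 and 403 to 727 genes, with 5 to 6 regulators in both. Without DMF + GSH replicate 3, the block lost Tbx21 when GSH was added, at a log2 fold change of -0.65. Among the log2 fold changes of the regulators, directions turned only in DMF + GSH against Ctrl, where they ranged from -0.044 to 0.35 for Tbx21, from -0.16 to 0.12 for Zeb2, from -0.15 to 0.049 for Id2, from -0.16 to 0.074 for Bhlhe40 and from -0.38 to 0.29 for Bcl6. Depth limits Prdm1 most, with 2 to 6 reads in the Ctrl libraries.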
